A study of Mus with 14 samples.

Results

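Psma8, Hormad2, Mtus2, Smim40 and Gdf3, 5 of the 32285 genes in the files, were followed through 14 libraries of mouse blood progenitors. Most of them are best known from germ cells or embryos. They were picked as genes whose RNA was lost in Dnmt3a libraries, with earlier results of these data in view. They were thus chosen by the same summed levels that are described here, so their levels in Dnmt3a against MxCre libraries are a description and support nothing. The description held for 4 of the 5. Psma8, Hormad2, Mtus2 and Smim40 were all above 5 CPM in the 3 MxCre libraries and all below 2 CPM in the 4 Dnmt3a libraries. CPM is a gene's count of unique molecular identifiers (UMIs, each marking 1 captured RNA molecule) per 1000000 UMIs of all kept cells of a library, with no further scaling. Gdf3 was not lost: it was above 10 CPM in all 14 libraries and its Dnmt3a levels reached or passed those of MxCre. Nor was the loss shared by every library with a Dnmt3a label, since Psma8, Hormad2 and Smim40 each stood at MxCre-like levels in some libraries that also carry a Tnfr label.

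As background, DNA methylation at promoters keeps many germline genes silent in body cells, and Dnmt3a is an enzyme that writes new methylation in blood stem cells. Psma8 encodes a proteasome core subunit of meiotic germ cells and is a close relative of the ubiquitous Psma7. Hormad2 encodes a HORMA-domain protein of the meiotic chromosome axis. Mtus2 encodes a protein that tracks growing microtubule ends, Smim40 a small membrane protein, and Gdf3 a secreted ligand of the transforming growth factor beta family known from pluripotent cells and Nodal signalling.

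All groups came from competitive transplants. Donor CD45.2+ cells and CD45.1+ competitor marrow went into aged, lethally irradiated CD45.1+ mice, 1 dose of poly(I:C) to activate the MxCre recombinase followed a month later, and marrow was passed to aged, irradiated secondary hosts that were harvested after 20 weeks. Lin-Kit+CD45.2+ bone marrow cells were sorted from each host and 12000 were loaded for droplet 3′ RNA sequencing. The genotypes in the labels are MxCre, the recombinase alone, with 3 mice, and Dnmt3a with 4. Mice labelled Dnmt3a;Tnfr1KO number 3 and those labelled Dnmt3a;Tnfr2KO number 4, and these are called Tnfr1KO-labelled and Tnfr2KO. The description of the design gives poly(I:C) and transplantation for all of them, controls included. The labels name neither the Dnmt3a allele nor the primary donor of each host. MxCre can act in any interferon-responsive tissue that carries it, but here poly(I:C) followed the transplant and the sorted cells were CD45.2+ donor cells. Hosts within a group may share a donor, and p-values measure only the spread between these libraries.

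The libraries held 1924 to 7265 kept cells and 66895 in all. Library totals ran from 62416022 to 162869740 UMIs, and the median per kept cell from 10677 in Dnmt3a replicate 4 to 39086 in Dnmt3a replicate 1. Dnmt3a replicate 1 stood apart, with 26.5% of its barcodes kept against 63.2% to 91.6% elsewhere. Of 85785 distinct barcodes, 901 occurred in more than 1 library. Kit, the surface marker of the sort, was detected in at least 30.2% of kept cells in every library. Dnmt3a RNA was at 25.2 ± 4.87 CPM (SD, n = 3) in MxCre and 33.3 ± 4.28 (SD, n = 4) in Dnmt3a. It was at 20.9 ± 1.70 (SD, n = 3) in the Tnfr1KO-labelled and 22.3 ± 0.830 (SD, n = 4) in the Tnfr2KO libraries, below every Dnmt3a library (29.4 to 38.8). This does not check the labels, since 3′ tags can lie outside a deleted part. Tnfrsf1b, which encodes Tnfr2, was at 4.79 ± 0.702 (SD, n = 4) in Tnfr2KO and 14.03 ± 3.07 (SD, n = 3) in MxCre. Tnfrsf1a, which encodes Tnfr1, was not lost in the Tnfr1KO-labelled libraries (36.2 ± 2.63, SD, n = 3) compared with MxCre (42.9 ± 3.12, SD, n = 3), so directions that rest on this label follow the label alone.

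In levels summed over a library, fewer cells of a type and less RNA per cell cannot be told apart, and the cell classes further down address the first only in part. Levels are compared between libraries, not between genes.

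Psma8 lies at chr18:14706135-14762301 in the GRCm38.p6 annotation. Its level was 17.2, 11.04 and 16.96 CPM in MxCre replicates 1 to 3, a mean of 15.1 ± 3.50 (SD, n = 3). In Dnmt3a replicates 1 to 4 it was 0, 0, 0.0073 and 0.125, which rest on 0, 0, 1 and 13 UMIs, and a count of 0 allows up to 0.0389 and 0.0397 in the first and second. No Dnmt3a library came near the MxCre range. The Tnfr1KO-labelled libraries were at 1.34, 12.8 and 12.1 CPM (8.75 ± 6.43, SD, n = 3), so replicates 2 and 3 fell inside the MxCre range and replicate 1 below it. The Tnfr2KO libraries were at 0, 0, 2.53 and 36.5 (9.77 ± 17.9, SD, n = 4), with upper limits of 0.0235 and 0.0209 behind the zeros. Replicate 4 of Tnfr2KO was thus above every MxCre library, replicate 3 was intermediate, and in replicates 1 and 2 no Psma8 UMI was seen. In order, MxCre, Tnfr2KO and Tnfr1KO-labelled means did not differ beyond their spread, and Dnmt3a was lowest. The 4 libraries without a Psma8 UMI held 34373, 36981, 72269 and 74904 UMIs of its relative Psma7.

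Hormad2 lies at chr11:4345801-4441198. It was at 13.4, 12.1 and 7.88 CPM in MxCre (11.1 ± 2.87, SD, n = 3) and at 0.026, 0.040, 0.161 and 0.106 in Dnmt3a (0.083 ± 0.063, SD, n = 4). The Tnfr1KO-labelled libraries were all low as well, at 0.294, 0.044 and 0.064. The Tnfr2KO group divided evenly, with 13.49 and 13.4 in replicates 1 and 2 and 0.092 and 0.301 in replicates 3 and 4. Those 2 high libraries are the ones without a Psma8 UMI, and the 2 low ones are those with Psma8. No library stood between 0.301 and 7.88. The order of means was MxCre, Tnfr2KO (6.82 ± 7.65, SD, n = 4), Tnfr1KO-labelled (0.134 ± 0.139, SD, n = 3) and Dnmt3a, and no neighbouring means in this order differed beyond their spread.

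Mtus2 lies at chr5:147957275-148316065. It was at 21.5, 21.997 and 14.6 CPM in MxCre (19.4 ± 4.11, SD, n = 3), and no other library reached 2. The Dnmt3a libraries were at 0.104, 0.145, 0.0073 and 0.106. Among the Tnfr1KO-labelled libraries, replicate 1 was at 1.91 and replicates 2 and 3 at 0.077 and 0.064. Among the Tnfr2KO libraries, replicate 4 was at 1.62 and replicates 1 to 3 at 0.024, 0.014 and 0.018. Mtus2 was therefore the member whose high level was seen in MxCre libraries and in none of the 11 others, while 2 of those 11 kept a trace well above the rest. The other groups' means, from 0.091 ± 0.059 (SD, n = 4) in Dnmt3a to 0.685 ± 1.06 (SD, n = 3) in Tnfr1KO-labelled, did not differ beyond their spread, and all were below MxCre by more than it.

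Smim40 lies at chr17:33893206-33906680. It was at 14.6, 11.3 and 8.36 CPM in MxCre (11.4 ± 3.10, SD, n = 3) and at 0.026, 0.026, 1.66 and 0.675 in Dnmt3a (0.598 ± 0.774, SD, n = 4). The Tnfr1KO-labelled libraries were at 0.018, 0.077 and 0.064. The Tnfr2KO libraries were at 0.4001, 1.07, 0.697 and 9.13, so that replicate 4 alone reached the MxCre range. That is the library with the highest Psma8. Low but clear levels, from 0.4001 to 1.66, were more frequent for Smim40 than for the other members, in 5 libraries. In order, the means were those of MxCre, Tnfr2KO (2.83 ± 4.21, SD, n = 4), Dnmt3a and Tnfr1KO-labelled, and MxCre was set apart from Tnfr2KO by more than either spread.

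Gdf3 lies at chr6:122605403-122610087. It was at 53.1, 32.8 and 51.9 CPM in MxCre (45.9 ± 11.4, SD, n = 3) and at 49.9, 72.0, 110.4 and 107.6 in Dnmt3a (85.0 ± 29.2, SD, n = 4). Replicates 2, 3 and 4 of Dnmt3a were above every MxCre library. It was at 42.9, 19.7 and 20.2 in the Tnfr1KO-labelled libraries (27.6 ± 13.2, SD, n = 3) and at 17.7, 13.8, 33.1 and 46.1 in the Tnfr2KO libraries (27.7 ± 14.8, SD, n = 4). All 4 Dnmt3a libraries were above all 7 libraries with a Tnfr label, at 49.9 or more against 46.1 or less. The share of all genes that part these libraries as fully was not counted, so nothing is read from this. The means of the Tnfr1KO-labelled and Tnfr2KO groups differed by far less than their spread. Gdf3 levels were graded, with no library near 0.

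**Figure D1:**
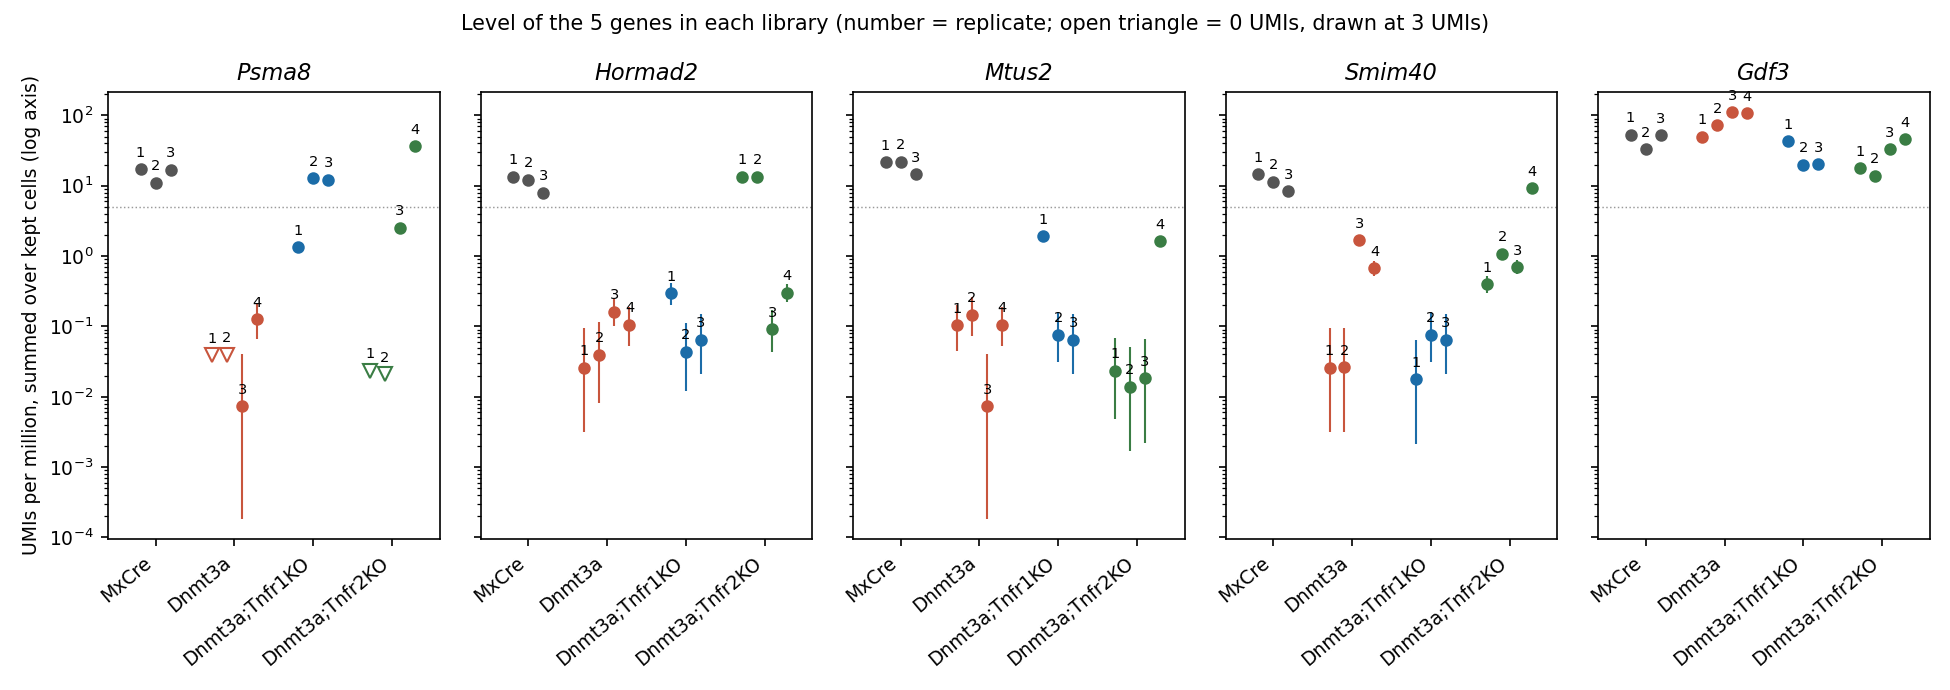
Level of each gene in each of the 14 libraries, in CPM on a log axis, by group, with the replicate number beside each point, 95% exact Poisson bars for counting error only, and a dotted line at 5 CPM. Psma8, Hormad2, Mtus2 and Smim40 lie above the line in all 3 MxCre libraries and below it in all 4 Dnmt3a libraries, while Gdf3 stays between 13.8 and 110.4 throughout.

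With 5 CPM as a dividing level, a round value set with these levels known, Psma8 was above it in 6 of 14 libraries, Hormad2 in 5, Mtus2 in 3, Smim40 in 4 and Gdf3 in 14. The gap around this level was wide. The lowest library above and the highest below were at 11.04 and 2.53 for Psma8, 7.88 and 0.301 for Hormad2, 14.6 and 1.91 for Mtus2, and 8.36 and 1.66 for Smim40. Combinations were the same in every library of MxCre and of Dnmt3a and differed between libraries of the Tnfr1KO and Tnfr2KO labels. All 5 genes were above it in each MxCre library and Gdf3 alone in each Dnmt3a library. Tnfr1KO-labelled replicate 1 had Gdf3 alone, and replicates 2 and 3 had Psma8 and Gdf3. Tnfr2KO replicates 1 and 2 had Hormad2 and Gdf3, replicate 3 had Gdf3 alone, and replicate 4 had Psma8, Smim40 and Gdf3. Whether libraries of a label share a donor is not given in the labels.

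The model across 15645 genes that passed the count filter, edgeR's quasi-likelihood test with Benjamini-Hochberg adjustment, included all 5 members. In Dnmt3a against MxCre, the contrast that chose them, 2 of the 5 were called lower at an adjusted p below 0.05, beside 1.10% of all genes tested, and nothing is read from that count. These were Hormad2 (log2 fold change -7.01, SE 1.43, edgeR adjusted p 0.0358) and Mtus2 (-7.93, SE 1.67, adjusted p 0.0389). Psma8 (-8.77, SE 2.26, edgeR adjusted p 0.0576), Smim40 (-4.27, SE 1.21, adjusted p 0.0690) and Gdf3 (0.81, SE 0.449, adjusted p 0.297) did not pass. DESeq2 called Hormad2 and Smim40 lower, beside 10.4% of all genes, and 4 of the 5 had an unadjusted p below 0.05 by edgeR, beside 23.4%. Fitted folds of genes with libraries at or near 0 depend on the model's prior count and are no bounds. The 2 calls fell to 0 without any 1 of the 3 MxCre libraries, and also without Dnmt3a replicate 1 or replicate 3. Shares of all genes in these refits are not given, so nothing is read from the fall.

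The other contrasts with MxCre share its 3 libraries and are given side by side. In Tnfr1KO-labelled against MxCre, 0 of the 5 were called by edgeR in either direction, beside 0.371% of all genes, or 0.275% counting lower calls alone. There Psma8 was at -0.72 (edgeR adjusted p 0.893), Hormad2 at -6.17 (0.0972), Mtus2 at -4.62 (0.212) and Smim40 at -7.69 (0.0684) in log2 fold change and adjusted p. At an unadjusted p below 0.05, 3 of the 5 passed, all lower, beside 11.9% of all genes, and DESeq2 called Hormad2 and Smim40 lower, beside 3.13%. In Tnfr2KO against MxCre, edgeR called 0 of the 5, beside 0.435% of all genes and 0.243% lower. Values there were -0.50 for Psma8 (edgeR adjusted p 0.887), -0.61 for Hormad2 (0.8002), -5.39 for Mtus2 (0.130) and -1.91 for Smim40 (0.414). At an unadjusted p below 0.05, 1 was lower, beside 15.5% of all genes, and DESeq2 called 0, beside 2.68%. Without Tnfr2KO replicate 4, 1 of the 5 was called in this contrast. The share of all genes in that refit is not given, so nothing is read from this count.

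Between the groups that carry the Dnmt3a label the members differed in direction from gene to gene. Since they were picked as low in Dnmt3a libraries, a higher level elsewhere is partly built into the choice. Hormad2 was higher in Tnfr2KO than in Dnmt3a libraries (log2 fold change 6.39, SE 1.38, edgeR adjusted p 0.0495), 1 of 5 members called beside 1.00% of all genes (0.377% lower), and this rested on replicates 1 and 2. The count of calls was 0 without Tnfr2KO replicate 1 or 2, or without Dnmt3a replicate 1 or 4. As shares of all genes in these refits are not given, nothing is read from that count. Psma8 was at 8.27 (SE 2.21, edgeR adjusted p 0.0780) in the same contrast and fell to 4.75 (adjusted p 0.208) without Tnfr2KO replicate 4. Gdf3 was at -1.41 (SE 0.415, edgeR adjusted p 0.0942), which did not pass, though DESeq2 put it at an adjusted p of 0.0372. DESeq2 called Hormad2 and Gdf3 here, beside 7.30% of all genes, and 3 of the 5 had an unadjusted p below 0.05 by edgeR, beside 23.0%.

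In Tnfr1KO-labelled against Dnmt3a, which shares the Dnmt3a libraries, edgeR called 0 of the 5, beside 0.492% of all genes and 0.205% lower. Psma8 was at 8.05 (SE 2.23, edgeR adjusted p 0.0971) and Gdf3 at -1.41 (SE 0.459, adjusted p 0.134). At an unadjusted p below 0.05, 1 was higher and 2 were lower in this contrast, beside 19.7% of all genes, and DESeq2 called 0, beside 6.17%. In Tnfr2KO against Tnfr1KO-labelled, edgeR called 0 of the 5, beside 0.205% of all genes and 0.0703% lower. Hormad2 (5.55, edgeR adjusted p 0.349) and Smim40 (5.78, 0.392) were furthest apart there. These 2 were higher at an unadjusted p below 0.05, beside 3.96% of all genes, and DESeq2 called both, beside 0.666%. DESeq2 gave no adjusted p for Psma8 and Mtus2 in any contrast.

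Whether these RNAs belong to 1 lineage was read from marker classes. A cell joined a class when at least 3 of its 8 markers had 2 or more UMIs and no other list had as many. Of 66895 cells, 42598 (63.7%) fell into the 7 classes that had at least 20 cells in each MxCre library: stem cell, lymphoid-primed, megakaryocyte, erythroid, basophil or mast cell, monocyte and granulocyte. Of the classed cells, 30.2% sat exactly at the 3-marker limit, 63.7% in the stem cell class. Median marker counts were 3 to 5 of a class's own list and 1 or 2 of any other list. A further 26.2% of cells showed too few markers and 5.37% were tied.

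In libraries where a gene was above 5 CPM, it was found in all 7 classes, or in all that had 20 cells. Psma8 differed across classes by 1.42 to 3.46-fold in its 6 libraries. In MxCre, with CPM now counted per 1000000 UMIs of a class, it was at 20.1 ± 5.30 in stem cells, 19.6 ± 4.40 in megakaryocyte cells, 11.7 ± 5.08 in monocyte cells and 11.03 ± 3.92 in granulocyte cells (each SD, n = 3). In Tnfr2KO replicate 4 the classes ran from 30.9 to 49.0. In Tnfr1KO-labelled replicates 2 and 3 they ran from 10.1 to 15.6 and from 8.42 to 14.01. The highest class changed between libraries. The stem cell class was highest in 2 of the 6, MxCre replicate 3 and Tnfr2KO replicate 4. The libraries with Psma8 above 5 CPM thus had its UMIs in all 7 classes. Psma8 did not pass the class test within MxCre described further on in the main setting, but passed it under 3 of the alternative settings.

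Hormad2 was lowest in erythroid cells in 5 of 5 such libraries and differed across classes by 1.82 to 3.83-fold. In MxCre it was at 6.27 ± 2.33 in erythroid cells and 16.7 ± 5.13 in basophil or mast cells (SD, n = 3). Erythroid cells were also lowest in the 2 Tnfr2KO libraries that had Hormad2, at 6.36 and 7.31, against 8.30 to 17.2 and 11.2 to 16.7 in the other classes. The highest class changed, from basophil or mast cells in MxCre to stem cells in Tnfr2KO replicate 1 and lymphoid-primed cells in replicate 2. Smim40 was also lowest in erythroid cells, in 4 of 4 libraries, at 4.52 ± 2.41 in MxCre (SD, n = 3) and 4.53 in Tnfr2KO replicate 4. Its highest MxCre class was basophil or mast cells, at 15.9 ± 6.42 (SD, n = 3). Mtus2, in the 3 MxCre libraries, was at 21.3 in stem cells, 21.2 in monocyte cells and 10.5 ± 5.47 in basophil or mast cells (means, n = 3).

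Gdf3 was highest in the erythroid lineage in most libraries. In MxCre it was at 79.5 ± 14.2 in erythroid cells, 50.1 ± 4.49 in megakaryocyte cells and 21.8 ± 10.2 in lymphoid-primed cells (SD, n = 3). Erythroid cells were its highest class in 11 of 14 libraries and granulocyte cells in the other 3, all of them Dnmt3a. Dnmt3a replicate 4 reversed the usual order: Gdf3 was at 17.3 in erythroid cells and between 125.9 and 138.6 in stem, lymphoid-primed, basophil or mast, monocyte and granulocyte cells. Dnmt3a replicate 3 was nearly flat, from 94.9 to 125.3. In the 2 other Dnmt3a libraries erythroid cells were at 74.6 and 84.5.

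A class test within the MxCre libraries, edgeR across 12336 genes with the library as a block, called 4 of the 5 members beside 90.2% of all genes, so a difference among classes was the usual state of a gene here. Adjusted p-values were 1.52e-10 for Gdf3, 3.05e-04 for Mtus2, 3.17e-04 for Hormad2, 0.00283 for Smim40 and 0.0837 for Psma8 (edgeR). DESeq2 put Smim40 at 0.0756. Psma8 passed under 3 of the alternative settings and did not under 5, so it is not set apart as a gene without class differences. The low levels in Dnmt3a libraries were present class by class. For Psma8 the highest level in any Dnmt3a class was 0.432 CPM and the lowest in any MxCre class 7.33. For Hormad2 these were 0.238 and 4.21, and for Mtus2 0.908 and 6.21. For Smim40 the ranges met, since erythroid cells of Dnmt3a replicate 3 were at 2.42 and those of MxCre replicate 3 at 1.90.

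**Figure D2:**
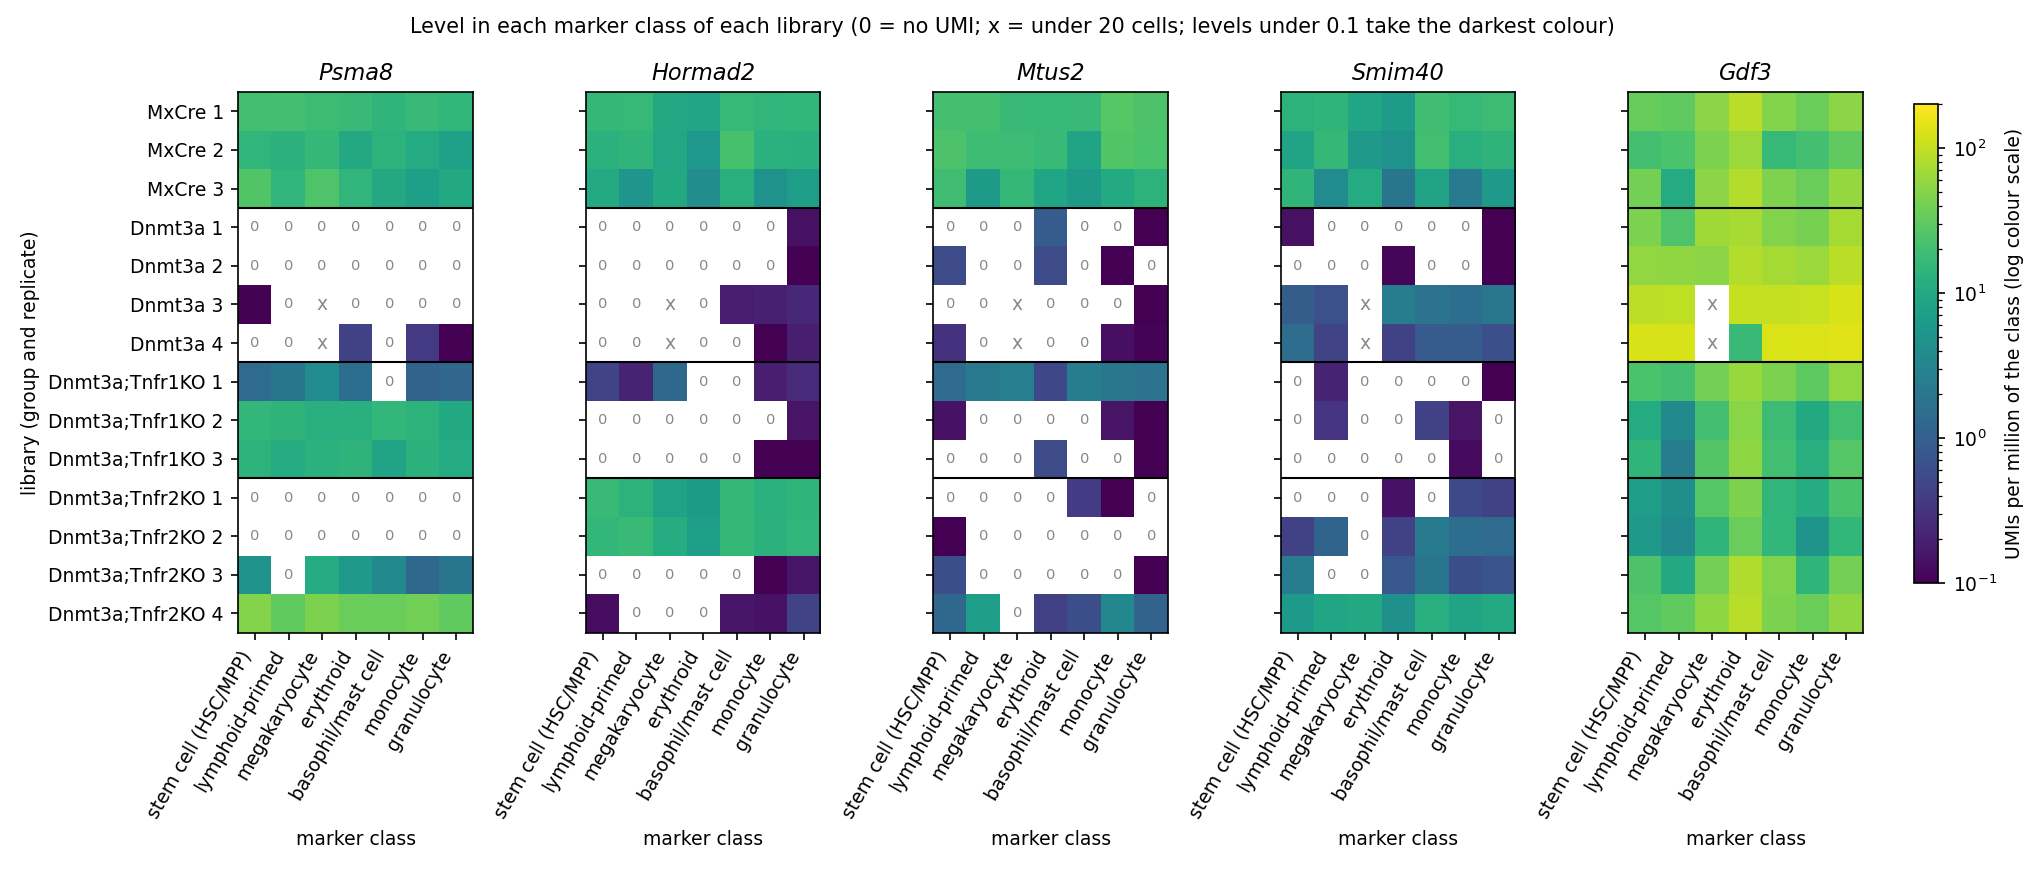
Level of each gene in 7 marker classes (columns) of each of the 14 libraries (rows), in CPM of the class on a log colour scale, with 0 marking no UMI and a cross marking under 20 cells. For Psma8, Hormad2, Mtus2 and Smim40 the libraries at 5 CPM or more have UMIs in all 7 classes, and fainter rows vary by class. Psma8 in Tnfr2KO replicate 3 runs from 0 to 11.2. Mtus2 in Tnfr2KO replicate 4 runs from 0.425 to 7.06 among classes with a UMI, and its 0 is a class of 24 cells where 3 counts would be 7.39. For Gdf3 the erythroid column is brightest in 11 of 14 rows.

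B-lymphoid cells, few in MxCre and a lineage that the Lin- sort selects against once mature, were looked at apart. They had median depths of 2248 to 4656 UMIs outside Dnmt3a replicate 1. In Tnfr1KO-labelled replicate 2 their 329 cells held 2 Psma8 UMIs, a level of 1.73 against 12.6 in the 7 classes, and 3 counts would be a level of 2.60. Replicate 3 had 1 UMI in 124 cells, 1.95 against 12.05, with 3 counts at 5.84. Gdf3 in Dnmt3a replicate 4 was at 2.27 in 2061 B-lymphoid cells (39 UMIs) against 128.2 in the 7 classes. In Dnmt3a replicate 3 it was 30.2 against 111.8. In Dnmt3a replicate 1 it was 5.45 on 7 UMIs against 51.2. In Tnfr1KO-labelled replicates 2 and 3 no Gdf3 UMI was seen in the 329 and 124 B-lymphoid cells, where 3 counts would be 2.60 and 5.84 and the 7 classes were at 21.5 and 20.4. Gdf3 was thus lower in B-lymphoid cells in these 5 libraries. In Tnfr1KO-labelled replicate 1 it was 43.6 against 42.9, and in MxCre replicate 3 22.9 against 52.2, each on 4 UMIs, in 25 and 40 cells. The Psma8 values rest on 2 and 1 counts and lie below their 3-count levels.

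Per cell, detection followed depth. Psma8 had a UMI in 31.5%, 17.9% and 22.6% of kept cells of MxCre replicates 1 to 3, which became 8.37%, 6.07% and 8.76% after each cell was thinned to 5000 UMIs. In Tnfr2KO replicate 4 the shares were 50.7% and 16.9%. In the libraries where a gene was faint, few cells held it: 124 (2.02%) for Psma8 and 147 (2.39%) for Mtus2 in Tnfr1KO-labelled replicate 1. Tnfr2KO replicate 3 had 213 cells (3.49%) with Psma8. Tnfr2KO replicate 4 had 159 (2.47%) with Mtus2, and Dnmt3a replicate 3 had 176 (3.21%) with Smim40. Shared barcodes touched few of the faintest libraries: of 366 positive cells in the 32 combinations of gene and library below 1 CPM, 1 shared its barcode with a positive cell elsewhere.

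The signal from 1 to 5 CPM was concentrated in cells. Had the Mtus2 UMIs of Tnfr1KO-labelled replicate 1 been spread over kept cells in proportion to depth, 5.22 cells would have held 2 or more, and 49 did (95% exact Poisson interval 36.3 to 64.8, counting error only). For Psma8 in the same library the values were 2.57 and 22 (13.8 to 33.3). For Psma8 in Tnfr2KO replicate 3 they were 8.22 and 45 (32.8 to 60.2). Both genes thus had more cells with 2 or more UMIs than an even spread gives, while most Psma8-positive cells held 1 UMI (102 of 124 and 168 of 213). For Mtus2 in Tnfr2KO replicate 4 they were 5.41 and 60 (45.8 to 77.2), and for Smim40 in Dnmt3a replicate 3 they were 5.64 and 38 (26.9 to 52.2). Over the 6 combinations of gene and library from 1 to 5 CPM, observed counts were 5.47 to 11.1 times those of an even spread. Above 5 CPM the ratio was lower but often above 1, at 0.979 to 1.46 times for Psma8, 1.09 to 1.41 for Hormad2, 1.04 to 1.33 for Mtus2 and 1.29 to 1.83 for Smim40. The highest ratio possible falls as a gene's level rises, so these ranges and that from 1 to 5 CPM are not on a like scale. Intervals lay above the even spread there in 5 of 6 libraries for Psma8, 4 of 5 for Hormad2, 1 of 3 for Mtus2 and 4 of 4 for Smim40. Smim40 in MxCre replicate 3 had 97 such cells (78.7 to 118.3) against 53.0. For Gdf3 the ratio ran from 0.615 in Dnmt3a replicate 4 to 1.54, with the interval above the even spread in 3 of 14 libraries and below it in 7. For so high a gene a ratio below 1 does not mean an even spread, as its counts of positive cells further on show. Below 1 CPM, among libraries with a UMI of the gene, 8 of 9 for Hormad2, 4 of 9 for Mtus2 and 3 of 8 for Smim40 held no such cell. The interval lay above the even spread in 1 of 9 for Hormad2, 4 of 9 for Mtus2 and 5 of 8 for Smim40, but on 3 cells for Hormad2, on 1 or 2 cells in each of the 4 for Mtus2, and on 1 cell in 2 of the 5 for Smim40. Cells with a Gdf3 UMI were fewer than an even spread gives in every library, and most clearly in Dnmt3a replicate 4. There 1655 cells held it where an even spread gives 3493. Each held 6.74 UMIs on average, against 1.53 to 3.55 in the other libraries. By class, cells with a Gdf3 UMI made 51.9% of granulocyte, 7.74% of erythroid and 1.75% of B-lymphoid cells in that library, and 91.6%, 73.5% and 8.24% in Dnmt3a replicate 3.

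**Figure D3:**
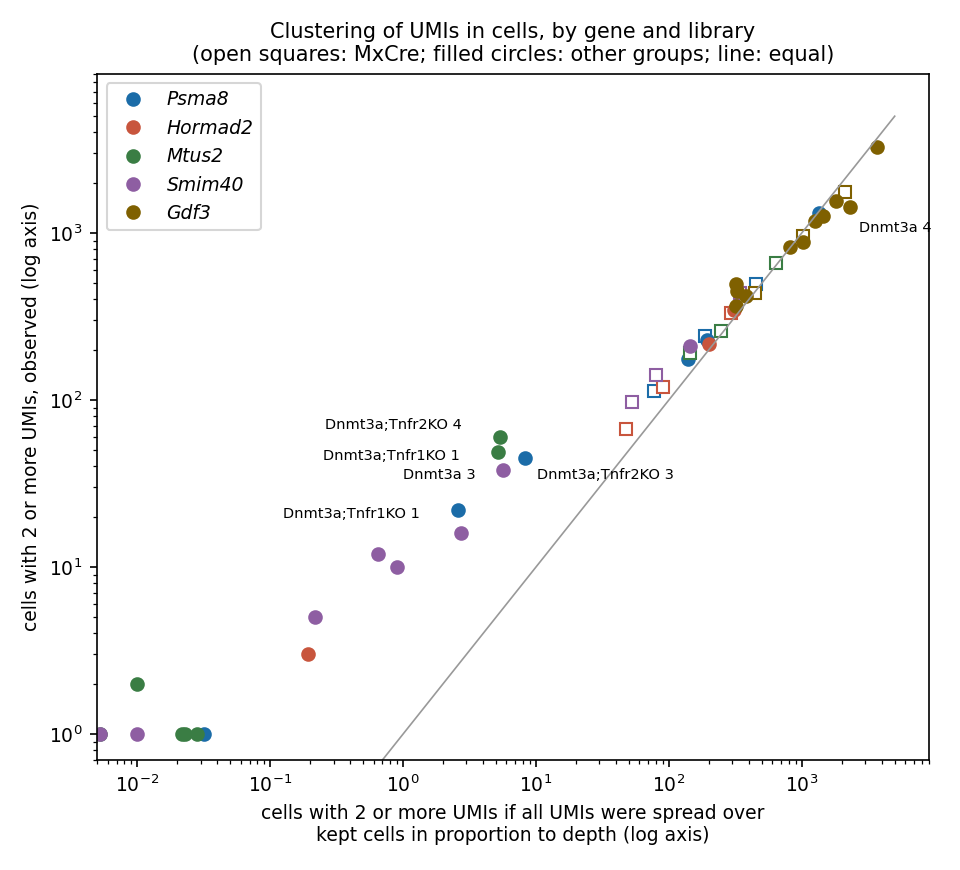
Cells with 2 or more UMIs of a gene as observed, against the number from an even spread over kept cells in proportion to depth, both on log axes, with 1 point per gene and library (open squares MxCre, filled circles the other groups). Combinations without such a cell are not drawn. Those from 1 to 5 CPM lie 5.47 to 11.1 times above the line of equality, and those above 5 CPM lie between 0.615 and 1.83 times its value. As the highest ratio possible falls with rising level, these ranges are not on a like scale. The points above 5 CPM are considered next. The lowest of them, Gdf3 in Dnmt3a replicate 4, is not evenly spread, since its positive cells are also fewer than an even spread gives.

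For the 6 combinations of gene and library from 1 to 5 CPM, the cells with a UMI, and the fewer with 2 or more, lay in several lineages, and some of their class shares differed from those of all cells. Of the 124 Psma8 cells of Tnfr1KO-labelled replicate 1, 92 fell into 6 of the 7 classes, 24 had too few markers and 8 were tied. Monocyte cells made 31.5% of the 124 (39 cells, 95% exact binomial interval 23.4 to 40.4) and 23.3% of all kept cells, unclassed ones included. Granulocyte cells made 30.6% and 23.9%. Among cells with 1 of the 7 classes, granulocyte or monocyte cells made 83.7% of positive and 81.2% of all cells. After thinning as described above, 0.493% of monocyte and 0.562% of granulocyte cells were positive, against 0.506% of all cells. Without thinning, positive cells were deeper than the library as a whole, with a median of 24272 against 19356 UMIs. The 22 of them with 2 or more UMIs comprised 8 granulocyte, 3 monocyte, 1 stem cell, 1 lymphoid-primed and 1 megakaryocyte cell, and 8 without a class (6 with too few markers, 2 tied). Of the 213 Psma8 cells of Tnfr2KO replicate 3, at a median of 16372 against 16929 UMIs, 125 likewise lay in 6 of 7 classes. There granulocyte cells made 30.05% of positive and 30.6% of all cells. Monocyte cells made 11.3% of positive cells (7.35 to 16.3) and 16.2% of all, erythroid cells 7.98% (4.72 to 12.5) and 4.20%, and megakaryocyte cells 4.23% (1.95 to 7.87) and 1.79%. A further 82 of the 213 had too few markers for a class. As a level, Psma8 there was at 11.2 CPM in megakaryocyte cells, on 9 positive cells, 6.08 in erythroid and 1.26 in monocyte cells. Of the 45 cells with 2 or more UMIs, 18 were granulocyte, 7 monocyte, 5 erythroid, 3 megakaryocyte and 1 stem cell. A further 8 showed too few markers, 2 were tied, and the remainder matched a list outside the 7 classes.

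The Mtus2 cells of Tnfr2KO replicate 4 were unevenly spread over the classes. Monocyte cells made 34.6% of its 159 positive cells (27.2 to 42.5) and 14.5% of all, and lymphoid-primed cells 8.18% (4.43 to 13.6) and 2.11%. The positive cells had a median of 27750 UMIs against 21978.5 in the library, and after thinning to 5000 UMIs 2.27% of monocyte and 4.44% of lymphoid-primed cells were positive, against 0.965% of all cells. As a level this was 7.06 CPM in lymphoid-primed, 3.45 in monocyte and 1.13 in granulocyte cells. It still occurred in 6 of 7 classes, and the 24 megakaryocyte cells without a UMI allow up to 7.39 CPM. The 60 cells with 2 or more UMIs lay in 4 classes, with 29 monocyte, 15 granulocyte, 8 lymphoid-primed and 1 stem cell, and 7 without a class (5 with too few markers, 2 tied). Mtus2 in Tnfr1KO-labelled replicate 1 occurred in all 7, with levels from 0.516 to 2.59, and its 49 cells with 2 or more UMIs in 5, of which 21 were monocyte and 15 granulocyte cells. Smim40 in Dnmt3a replicate 3 occurred in 6 classes, the seventh having under 20 cells, and granulocyte cells made 34.7% of positive and 25.0% of all cells. The positive cells had a median of 27638 UMIs against 24510 in the library. After thinning to 5000 UMIs, 0.806% of granulocyte cells were positive, against 0.789% of all cells. The 38 Smim40 cells of this library with 2 or more UMIs lay in 4 classes, 17 of them granulocyte and 9 monocyte cells. Of the 130 Smim40 cells of Tnfr2KO replicate 2, monocyte cells made 30.8% (22.98 to 39.5) and 15.4% of all cells, and granulocyte cells 29.2% (21.6 to 37.8) and 17.4%. These positive cells had a median of 34907.5 UMIs against 23751 in the library. After thinning to 5000 UMIs, 0.465% of monocyte and 0.415% of granulocyte cells were positive, against 0.380% of all cells. Its 16 cells with 2 or more UMIs lay in 5 classes, 7 of them granulocyte and 4 monocyte cells.

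In some libraries below 1 CPM the few positive cells lay mostly in 1 or 2 classes. Of the Hormad2 cells that had 1 of the 7 classes, 17 of 18 in Dnmt3a replicate 3, 8 of 8 in Dnmt3a replicate 4, 9 of 9 in Tnfr2KO replicate 3 and 28 of 30 in Tnfr2KO replicate 4 were granulocyte or monocyte cells. Among all cells with such a class that share was 68.6%, 71.9%, 79.8% and 68.1%. In Tnfr1KO-labelled replicate 1 it was 17 of 20 (85.0%) against 81.2%. The Hormad2 cells of the first 4 libraries were deeper than their libraries, with medians of 36844.5, 44362, 29144 and 28757 UMIs against 24510, 10677, 16929 and 21978.5, and the part of depth in these shares was not tested. Mtus2 in Dnmt3a replicate 1 had 6 positive erythroid cells, at 0.908 CPM in that class, and 1 of the other 6 classes held a UMI.

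Members were then paired within cells, against the number of double-positive cells given by unrelated genes within the same class and depth bin. Over the 30 pairs of members in the 3 MxCre libraries the ratio of observed to that number was 0.982 to 1.43, median 1.06, and above 1 in 29 of the 30. After thinning to 5000 UMIs it was 0.732 to 1.52, median 1.11, and above 1 in 21. The 95% Poisson interval of the shared cells lay above the number from unrelated genes in 9 of 10 pairs in MxCre replicate 3 and in 0 of 10 in each of replicates 1 and 2. After thinning it did so in 1 of 10 pairs in replicate 3 and in 0 of 10 in the others. In faint libraries 3 pairs stood far from this, and all pairs named here were picked after their values were seen. In Tnfr1KO-labelled replicate 1, Psma8 and Mtus2 shared 31 cells (95% Poisson interval 21.1 to 44.002) where 4.15 were given, a ratio of 7.47. Psma8 and Hormad2 shared 10 cells there (4.80 to 18.4) against 1.25. Hormad2 and Mtus2 shared 1 against 1.06. In Tnfr2KO replicate 3, Psma8 and Smim40 shared 24 cells (15.4 to 35.7) against 2.34.

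Tnfr2KO replicate 4 showed the opposite for Mtus2. Mtus2 and Smim40 shared 3 cells (0.62 to 8.77) where 29.2 were given, so the Mtus2 cells of this library were nearly without Smim40. Mtus2 and Psma8 shared 60 (45.8 to 77.2) against 90.0. Mtus2 and Gdf3 shared 113 (93.1 to 135.9) against 74.0, and Psma8 and Smim40 shared 653 (604 to 705) against 604.2. The Mtus2 cells thus held Smim40 and Psma8 less often, and Gdf3 more often, than unrelated genes give.

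The double-positive cells spread over classes too. The 31 cells with Psma8 and Mtus2 in Tnfr1KO-labelled replicate 1 comprised 10 monocyte, 8 granulocyte, 3 lymphoid-primed and 1 erythroid cell, and 9 without a class (4 tied, 5 with too few markers). The 24 cells with Psma8 and Smim40 in Tnfr2KO replicate 3 comprised 12 granulocyte, 4 monocyte, 2 stem cell and 1 erythroid cell, and 5 with too few markers. A set of cells that shared 2 of the RNAs thus included several blood lineages in both libraries. Called doublets had been removed before these counts.

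**Figure D4:**
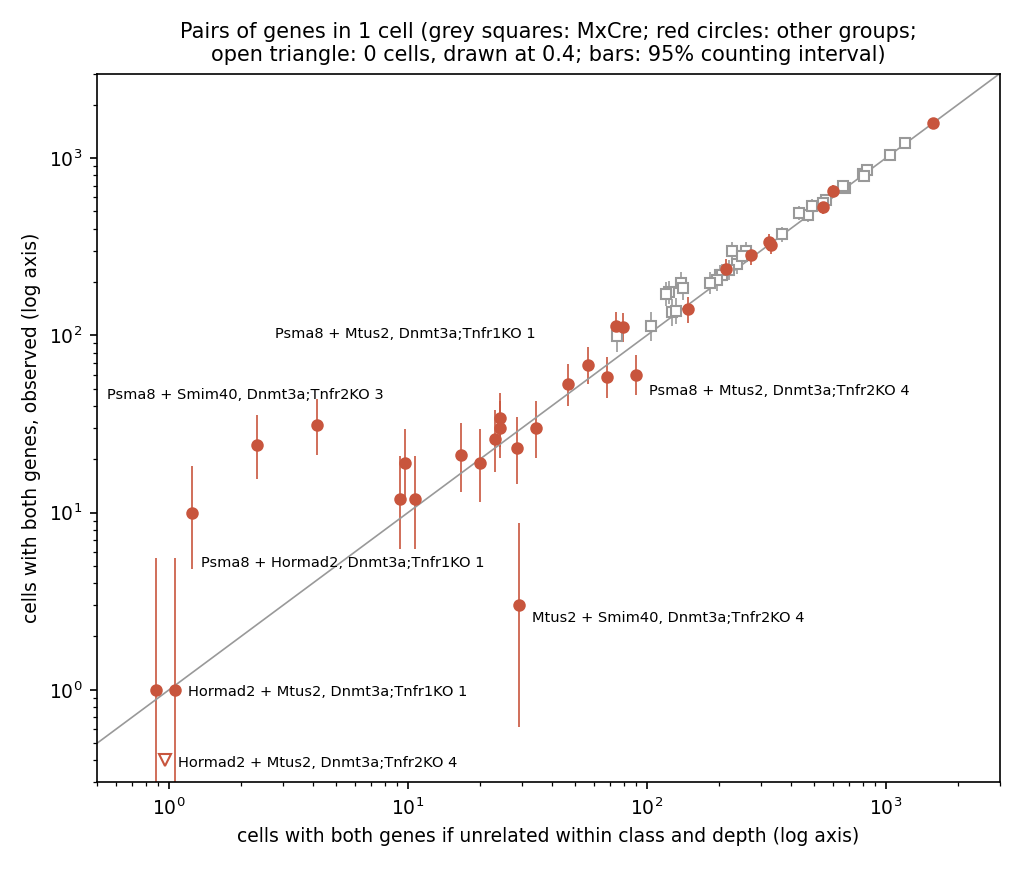
Cells with both genes of a pair as observed, with 95% Poisson bars, against the number from unrelated genes within class and depth, on log axes, 1 point per pair and library. MxCre pairs (grey) lie at 0.982 to 1.43 times the line of equality, 3 pairs of faint libraries lie above it with 31, 24 and 10 cells, and Mtus2 with Smim40 in Tnfr2KO replicate 4 lies below it with 3 cells.

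Such steps between libraries were rare among genes. Within granulocyte cells, 60 of 9465 genes (0.634%) that reached 5 CPM somewhere ranged over at least 50-fold across libraries, and 4 of the 5 members were among them. Within monocyte cells there were 49 of 9493 (0.516%), with the same 4 members, and within stem cells 29 of 10440 (0.278%), with Psma8, Hormad2 and Mtus2. This rule was set after the members' values were seen, and the members were chosen for such a range. Gdf3 was in none of the 3.

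The members did not move as 1 block over the 14 libraries. Pearson's r on log2(level + 1) was 0.847 for Mtus2 and Smim40, 0.640 for Psma8 and Smim40, and 0.134 for Psma8 and Hormad2. With Gdf3 it ran from -0.377 to 0.176. The 3 MxCre libraries are high for Psma8, Hormad2, Mtus2 and Smim40 alike, which these values share. By the same measure the genes most like Hormad2 were Zfp612 (0.927), Gm35021 (0.927) and Stag3 (0.915), the last a meiotic cohesin subunit. Zfp612 was at most 0.457 CPM in any library, so its r rests on few UMIs. Stag3 was at 1.40, 3.01 and 1.71 CPM in MxCre and at 1.58 and 1.45 in Tnfr2KO replicates 1 and 2. It was at 0.477 and 0.712 in Tnfr2KO replicates 3 and 4. Genes named as most like a member, here and below, were picked by their r over these same 14 libraries. Sharing the high and low libraries of that member is thus built into the choice.

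Those most like Mtus2 were Trap1a (0.958), Ly6k (0.941) and C7 (0.912). Trap1a was at most 0.537 CPM in any library and C7 at most 0.144, so their r values rest on few UMIs. Ly6k, a surface protein best known from testis, was at 2.33, 4.59 and 2.61 in MxCre and at most 0.338 elsewhere. Those most like Smim40 were Il17rc (0.921), Ccdc36 (0.885) and Tuba8 (0.881). Ccdc36 is an older symbol of Iho1, a meiotic recombination factor. Il17rc, a receptor subunit for interleukin 17, was at 1.07, 1.19 and 2.01 in MxCre and 1.49 in Tnfr2KO replicate 4, and at 0.031 to 0.301 in the rest. For Psma8 the likeness was looser: Spint2 (0.830), 9430085M18Rik (0.828) and Large2 (0.811), with Spint2 never below 67.3. For Gdf3 the nearest were Gm37933 (0.867), Ap4b1 (0.856) and the DNA repair gene Ercc1 (0.851), which was at 15.5 to 25.3 in Dnmt3a and 7.995 to 9.55 in the Tnfr1KO-labelled libraries.

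**Figure D5:**
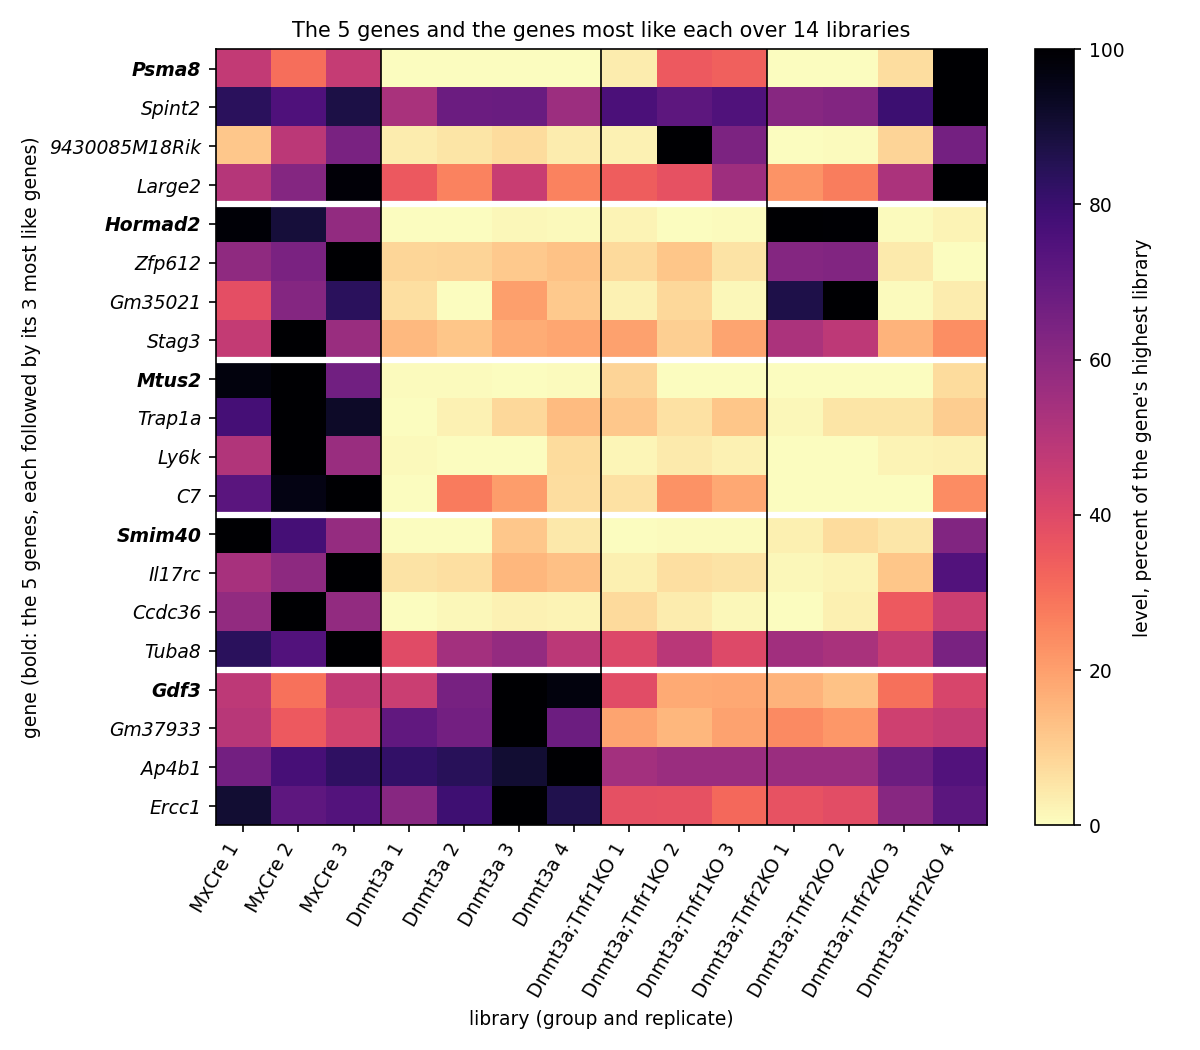
Each row is a gene and each column a library, coloured by the level as a percent of that gene's highest library, with each of the 5 members (bold) followed by its 3 most alike genes. The rows of the Hormad2 block are higher in the 3 MxCre libraries and in Tnfr2KO replicates 1 and 2 than elsewhere, and those of the Mtus2 block in MxCre. In the Smim40 block Il17rc is also high in Tnfr2KO replicate 4, and Tuba8 is graded over all libraries, from 11.95 to 30.4 CPM. The 3 genes below each member were picked for this likeness.

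The 5 genes sit on 5 chromosomes. Of the 3 genes on each side, 30 in all, 24 passed the count filter. In Dnmt3a against MxCre edgeR called 0 of these, beside 2.26% of all genes, and nothing is read from that count. No neighbour had an r above 0.8 with its member. Ss18, 21.7 kb from Psma8, stayed between 27.5 and 38.8 CPM in all libraries. Kifc1 (6.43 to 17.4) and Daxx (18.0 to 26.9), 2.57 and 2.72 kb from Smim40, were at log2 fold changes of 0.10 and 0.11. Apobec1, 2.38 kb from Gdf3, ranged from 7.26 to 16.6 and had an r of 0.586 with it. The germline and embryonic neighbours of Gdf3, Dppa3 (0 to 0.081) and Nanog (0 to 0.026), were at or near 0 in every library and did not pass the count filter. Dppa3 had an r of 0.746 with Gdf3, resting on 4, 11 and 6 UMIs in Dnmt3a replicates 2 to 4 and 0 to 3 elsewhere.

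Related genes were looked at as lists. In Dnmt3a against MxCre edgeR called 2.26% of all genes in either direction, so few or no calls in any list below are usual and nothing is read from them. The lists were put together with earlier results of these data known, and over all tested genes the median log2 fold change was 0.03. Of 18 proteasome genes put together around Psma8, core subunits and the activator Psme4, all 18 were tested and edgeR called 0 (median -0.10). Psma7 was at 513.8 ± 33.4 CPM in MxCre and 501.5 ± 61.5 in Dnmt3a (SD, n = 3 and n = 4; edgeR adjusted p 0.684). The immunoproteasome subunit Psmb8 was at 495.8 ± 44.3 and 566.3 ± 38.7. Of 29 meiotic chromosome genes found in the files under their listed symbols, 13 were tested, 1 was higher and 2 lower (median 0.19). This stands beside 2.26% of all genes called in either direction. Iho1, in the files under its older symbol Ccdc36, was not in that count. It was called lower as well (log2 fold change -5.44, SE 1.18, edgeR adjusted p 0.0413). Iho1 was noticed through its likeness to Smim40, itself low in Dnmt3a libraries, so a lower level is built into that choice. Stag3 (log2 fold change -2.19, SE 0.42, edgeR adjusted p 0.0320) and Rec8, another meiotic cohesin subunit (-1.86, SE 0.44, adjusted p 0.0467), fell. Rec8 was at 6.35, 5.92 and 6.99 in MxCre and at 1.94, 3.05, 1.73 and 0.791 in Dnmt3a, and Stag3 stayed at 0.357 to 0.560 in Dnmt3a. Prdm9, the methyltransferase that places meiotic recombination sites, rose from 1.07 ± 0.198 (SD, n = 3) to 2.003 ± 0.323 (SD, n = 4; log2 fold change 0.82, edgeR adjusted p 0.0427).

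Of 28 other germline genes in the files only 5 passed the count filter, and edgeR called 0 (median 0.14). The most abundant were Brdt, a testis bromodomain protein (0.678 ± 0.261 CPM in MxCre and 0.774 ± 0.321 in Dnmt3a), and the germ cell helicase Ddx4 (0.368 ± 0.109 and 0.449 ± 0.381). The 23 pluripotency and Nodal pathway genes, put together around Gdf3, had 12 tested and 0 called (median 0.02). Their signal transducers Smad2 (0.13, edgeR adjusted p 0.519) and Smad4 (0.31, 0.216) were among them. Of 17 microtubule plus-end genes, put together around Mtus2, 16 were tested and 1 rose (median 0.18). This was Clip1, a plus-end tracking protein (log2 fold change 0.73, SE 0.13, edgeR adjusted p 0.0305). It was at 21.7, 23.9 and 26.9 CPM in MxCre and at 58.7, 35.6, 37.8 and 38.9 in Dnmt3a, with the library that stood apart, replicate 1, highest. In the 5 other comparisons, where 0.205% to 1.00% of all genes were called, edgeR called 1 gene of these lists. This was Kif2a, a microtubule-depolymerizing kinesin, named after its value was seen and lower in Tnfr1KO-labelled than in Dnmt3a libraries (-0.56, SE 0.108, edgeR adjusted p 0.0454).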

How the data were processed

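Per the labels' protocols, cells of each mouse were captured with 10x Chromium version 3.1 chemistry, which tags the 3′ ends of RNA. The deposited matrices hold whole-number UMI counts per gene and barcode, without normalization, and per the file headers the authors made them with Cell Ranger 6.0.0. The submitters' processing notes also name bcl2fastq 2.20.0.422 and the builds mm10 and GRCm38. The annotation release is not given in the sources used here. Gene positions come from a RefSeq table of assembly GRCm38.p6.

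The 5 members, the gene lists and the tests were chosen with earlier results of these data known. Cells were kept at 1000 UMIs, 500 genes and under 10% mitochondrial UMIs, and doublets were called by their share of simulated neighbours at 0.8% per 1000 cells and removed. Levels (CPM) are UMIs per 1000000 kept UMIs. Classes used 12 lists of 93 markers, each marker present from 2 UMIs, and the rule for scoring them was written with the matrices already at hand. No clustering was used to name cells. Summed counts of the 14 libraries were fitted in 1 model of 4 groups with edgeR 4.0.16 (TMM scaling, filterByExpr, two-sided quasi-likelihood test, R 4.3.3), with DESeq2 1.42.0 as an alternative, and a gene was called at an adjusted p below 0.05. The fits were tested on simulated data. Likeness is Pearson's r of log2(level + 1) over 14 libraries among genes that passed the count filter, and the 3 highest were named for each member. Neighbours were the 3 nearest protein-coding genes on each side. Of each list, up to 4 genes called in Dnmt3a against MxCre were named, or with none called the 2 most abundant. Intervals are 95% exact ones and cover counting error only, as does the limit of 3 counts for a count of 0. The alternatives were library totals without scaling, no filter on low counts, a fit of only the 2 groups compared, a replicate block, cells from 2000 UMIs, doublets kept, all barcodes, marker presence from 1 UMI, thinning to 5000 UMIs and leaving out each library. Python 3.11.15 with numpy 2.4.6, scipy 1.17.1 and scikit-learn 1.9.0 was used for the cells.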

Additional observations from a re-analysis of the deposited data

Results flagged for a closer look

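Within groups of 4 libraries, 4 levels of the members lay apart from the rest of their group by Dixon's ratio at its 95% critical value. The 10 groups tested were 5 genes in Dnmt3a and in Tnfr2KO, and chance flags about 1 in 20. Psma8 in Dnmt3a replicate 4 was at 0.125 CPM, against 0 to 0.0073 in the other 3 libraries. Tnfr2KO replicate 4 accounted for the remaining 3 levels. It had Psma8 at 36.5 against 0 to 2.53, Mtus2 at 1.62 against 0.014 to 0.024, and Smim40 at 9.13 against 0.4001 to 1.07. Hormad2 and Gdf3 were not apart in that library. When the genes were chosen, Tnfr2KO replicate 4 was already known as the library of its group that keeps Psma8, so its Psma8 level is a description and adds no independent observation.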

How the results depend on the processing

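The alternatives were run on 10 fold changes of single genes and on the 5 adjusted p-values of the class test. No fold change among the 10 turned direction. Over these genes and alternatives, 159 values stayed on their side of the threshold, 18 no longer passed it and 11 newly passed it. In Dnmt3a against MxCre, the 2 calls ranged from 0 to 2 when each library was left out. In Tnfr1KO-labelled against MxCre, the count went from 0 to 2 with DESeq2 and to 2 with a fit of only these groups. In Tnfr2KO against MxCre it was 0 to 1 over the libraries left out. In Tnfr1KO-labelled against Dnmt3a a fit of only these groups called 1, Psma8. In Tnfr2KO against Dnmt3a the single call became 2 with DESeq2, 3 with library totals and 0 with a fit of only these groups, and 0 to 1 with each library left out. In Tnfr2KO against Tnfr1KO-labelled DESeq2 called 2 in place of 0. Shares of all genes called are given above for DESeq2 but not for the other alternatives, so nothing is read from these counts. The causes were not tested.

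Same-numbered libraries did not deviate together as a set (median r 0.0122 over 19 pairs, against -0.0352 over 54 others). An r above 0.1 was found in 8 of the 19 and in 19 of the 54. A median cannot exclude a batch shared by some of them, and the replicate numbers were not used as a pairing in the main fit. With them as a replicate block, the calls were 2 in Dnmt3a against MxCre, 0 in Tnfr1KO-labelled and 1 in Tnfr2KO against MxCre, 1 and 0 for these against Dnmt3a, and 0 between them. Shares of all genes under the block are not given either, so nothing is read from these calls. Under the block Psma8 in Dnmt3a against MxCre was at -13.85 (edgeR adjusted p 0.0259) and Hormad2 at -6.11 (0.0683).

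Depth limits detection per cell. Thinned to 5000 UMIs, the share of MxCre stem cell class cells with a UMI went from 26.4% to 10.2% for Psma8, from 17.9% to 6.59% for Hormad2, from 27.9% to 10.98% for Mtus2, from 16.97% to 6.15% for Smim40 and from 33.2% to 13.4% for Gdf3. Classes rest on few markers per cell, most of all the stem cell class, and hosts may share donors.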
